A study of Mus musculus with 12 samples.

Results

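Of 9 named regulators of the 2-cell-like state, Zscan4c, Duxf3 and Obox6 each had a region of FLAG-Zscan4 chromatin immunoprecipitation inside the gene, and the other 6 had none within 50 kb. Over all annotated genes, 23.2% had a region within 50 kb and 4.46% had one in the body. The 9 genes are the Zscan4 copies Zscan4a, Zscan4b, Zscan4c, Zscan4d, Zscan4e and Zscan4f, together with Duxf3, Obox6 and Zfp352, out of 49640 annotated genes. They were chosen by name, and a region counted as near a gene when its midpoint lay in the gene body or within 50 kb of it. Of the 4973 regions in the list, 4 met this rule. RefSeq annotates 7 of the 9 as protein-coding, Zscan4a as a transcribed pseudogene and Zscan4e as a pseudogene.

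The regions came from J1 cells, a mouse embryonic stem (ES) cell line with the strain label 12910la, that overexpressed Zscan4. The cells had received 1000 ng of a plasmid with the coding sequence of Zscan4c behind a FLAG tag in a vector of the pCMV type. After 24 h they were selected in 500 ug/ml G418 for 10 days, and single clones were picked. The sources used here do not say how many clones were used. An anti-FLAG antibody pulled down the tagged protein, and an input library of the same genotype was also sequenced but was not analysed here. The study also holds 6 histone mark libraries and 4 further inputs, from wild-type and overexpressing cells, which were not analysed here. With 1 FLAG immunoprecipitation there is no replicate, so no difference below carries a test, and depth is unknown.

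A small, changing fraction of ES cells passes through a state that resembles the 2-cell embryo, in which the embryonic genome is first transcribed in the mouse. The transcription factor Dux activates genes of this state, Zscan4 and retroviral elements of the MERVL class among them. Zscan4 proteins carry a SCAN domain and zinc fingers, bind DNA, and are known for a role in telomere maintenance. Obox proteins are homeobox factors of the oocyte and early embryo, and Zfp352 is a zinc finger gene transcribed in the 2-cell embryo.

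The promoters of 4 Zscan4 copies are shown because they are nearly identical. The bodies of the genes, where the Zscan4c region lies, and the copies Zscan4a and Zscan4e were not compared in sequence here. RefSeq promoter windows (build GRCm38.p6, the build of mm10) were found for 6 of the 9 genes, and the 250 bases before the annotated start are printed 5′ to 3′ on the strand of each gene for the 4 Zscan4 copies among them. Capitals mark the letters TATAAAA. The windows are chr7:10905051-10905300 on the minus strand for Zscan4b, chr7:11005495-11005744 on the plus strand for Zscan4c, chr7:11166149-11166398 on the minus strand for Zscan4d and chr7:11397665-11397914 on the plus strand for Zscan4f.
Zscan4b: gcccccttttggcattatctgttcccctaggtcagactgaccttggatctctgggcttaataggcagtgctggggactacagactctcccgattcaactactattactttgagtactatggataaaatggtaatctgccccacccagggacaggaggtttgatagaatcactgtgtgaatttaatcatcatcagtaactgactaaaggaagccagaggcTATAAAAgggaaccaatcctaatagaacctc
Zscan4c: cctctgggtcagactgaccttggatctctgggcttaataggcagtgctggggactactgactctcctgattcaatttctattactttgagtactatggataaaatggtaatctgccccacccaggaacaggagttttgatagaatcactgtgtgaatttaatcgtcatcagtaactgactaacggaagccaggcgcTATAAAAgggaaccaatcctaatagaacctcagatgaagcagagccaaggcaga
Zscan4d: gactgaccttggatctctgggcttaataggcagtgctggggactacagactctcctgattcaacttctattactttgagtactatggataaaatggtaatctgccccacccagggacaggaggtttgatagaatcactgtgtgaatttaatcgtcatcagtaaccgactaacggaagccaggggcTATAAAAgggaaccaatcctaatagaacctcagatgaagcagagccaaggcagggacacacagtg
Zscan4f: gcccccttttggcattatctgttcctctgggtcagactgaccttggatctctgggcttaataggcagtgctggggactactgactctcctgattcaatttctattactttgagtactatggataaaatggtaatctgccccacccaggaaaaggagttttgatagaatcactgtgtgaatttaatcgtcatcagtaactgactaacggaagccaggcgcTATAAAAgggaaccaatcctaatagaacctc
Zscan4c and Zscan4f were identical at 226 of 227 aligned bases, and the difference was C128A, with the Zscan4c base first and positions counted from 1 at the first base of the Zscan4c window. Across the 6 pairs of these copies the identity ran from 94.7% (Zscan4b and Zscan4c) to 99.6% (Zscan4c and Zscan4f), with no gap inside an alignment. The annotated starts are not at the same place in the shared sequence: TATAAAA begins 31 bases before the start in Zscan4b and Zscan4f, 54 in Zscan4c and 65 in Zscan4d. On either strand, these letters occurred in 4.98% of 32817 promoter windows of the same length. Reads from promoters as alike as these can be hard to assign to one copy, and the sources used here do not say how the authors treated reads with several matches.

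Zscan4c was the only Zscan4 copy with a region in its body. The region lay at chr7:11009496-11009964, was 469 bp wide and had a score of 102. This score was set by the authors, its scale is unstated, and it is used here to order regions within the list. The region held place 521 of 4973, and 10.9% of all regions scored at least as high. The list had a median score of 33 (interquartile range 23 to 55) and a median width of 310 bp (248 to 479 bp).

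Within Zscan4c (chr7:11005745-11010547, plus strand, 4803 bp) the region was in the last part of the gene and away from its promoter. It began 3751 bases after the first base of the gene and ended 583 bases before its last, which is from 78.1% to 87.8% of the span. Which exon or intron it falls in was not analysed here. The transfected plasmid carries the Zscan4c coding sequence, so reads from the plasmid and reads from the chromosomal gene cannot be told apart where both hold the same bases. The part of plasmid reads in this region was not tested.

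The other Zscan4 copies had no region within 100 kb, and each had the Zscan4c region as its nearest. The distance was 104.68 kb for Zscan4b, 151.913 kb for Zscan4d and 210.665 kb for Zscan4a. It was 296.639 kb for Zscan4e and 388.185 kb for Zscan4f. Because this region lies in Zscan4c, the distances restate the place of each copy relative to Zscan4c and say nothing further about binding. These 5 copies have bodies of 4311 to 4825 bp, close to the 4803 bp of Zscan4c. For Zscan4b, 38.0% of all genes had a region at least as near, and for Zscan4f 75.2% did. These shares rank the same distances, so they too say nothing further about binding. A copy can fall short of the threshold of the list and still be bound, so a copy without a region is not shown to be free of FLAG-Zscan4.

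The Zscan4 cluster as a whole held 1 region over 608 kb, from chr7:10794241 at Zscan4a to 11402318 at Zscan4f. At the rate of chromosome 7, 1.79 regions per Mb, a stretch of this length would hold 1.09. The cluster has 30 annotated genes, 23 of them pseudogenes and 4 protein-coding, and neighbouring copies are 87.2 to 151 kb apart. On its lower side the next region was chr7:10471585-10472138 (score 16), at 322 kb, and on its higher side chr7:12959098-12959393 (score 23), at 1557 kb. The Zscan4c region thus stood alone, with 538 kb to the nearest other region. The pseudogenes Zscan4-ps1, Zscan4-ps2 and Zscan4-ps3 had none within 50 kb, at 55.4, 505 and 599.6 kb.

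**Figure D1:**
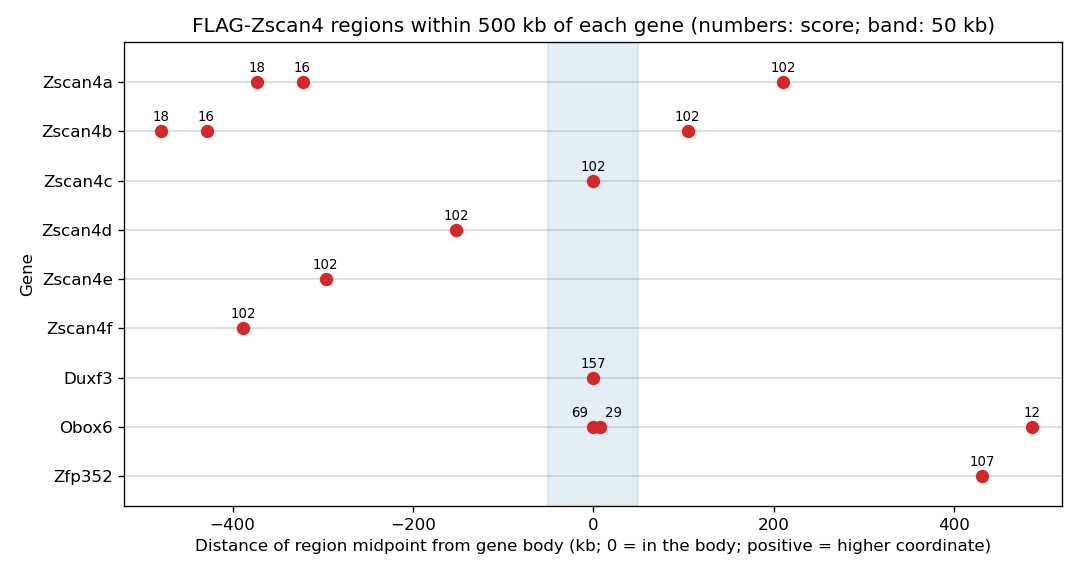
Regions within 500 kb of each of the 9 genes, by the distance of the region's midpoint from the gene body in kb (0 is inside the body), with 1 row per gene, 1 point per region, the authors' score as a number and a band for 50 kb on either side. Points fall in the band in the rows of Zscan4c (score 102), Duxf3 (157) and Obox6 (69 and 29), and the point of score 102 in the other Zscan4 rows is the Zscan4c region again.

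Duxf3 held the highest score of the 4 regions. Duxf3 is a double homeobox gene of the Dux family. The gene table used here has no separate entry named Dux, and Duxf3 was used for it. The region, at chr10:58230936-58231540, was 605 bp wide with a score of 157, place 274 of 4973, and 5.53% of regions scored at least as high. Duxf3 (chr10:58229505-58233089, minus strand, 3585 bp) held it from 1549 to 2153 bases after the first base of the gene, or 43.2% to 60.1% of the span. No other region lay within 500 kb, and the next midpoint on the chromosome was 793 kb away with a score of 18.

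The Duxf3 region also lay close to other annotated genes of this short stretch. Its midpoint was 2.57 kb from the pseudogene Gm10807, 3.61 kb from the protein-coding gene Gm4981 and 5.41 kb from the predicted coding gene LOC100504180. Gcc2, which encodes a golgin of the trans-Golgi network, was 24.2 kb away. Dux genes lie in a tandem repeat array, and reads from copies of a repeat cannot be told apart where the copies are alike. The number of copies behind this region was not analysed here.

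The promoter of Duxf3 (chr10:58233090-58233339, minus strand, 250 bases before the start) is shown. Of the 6 promoters, it alone held an exact match to the core of the Dux recognition sequence. The capitals mark the match to GATTNAATC, searched on both strands.
Duxf3: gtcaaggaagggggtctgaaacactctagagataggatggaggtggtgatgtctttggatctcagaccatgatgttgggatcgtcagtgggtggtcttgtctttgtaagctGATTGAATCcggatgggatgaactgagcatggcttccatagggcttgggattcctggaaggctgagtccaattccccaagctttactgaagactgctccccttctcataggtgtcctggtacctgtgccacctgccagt
The match began 139 bases before the start. These letters occurred in 81 of 32817 promoter windows (0.247%). Near matches were not searched for. Each printed Zscan4 promoter holds AATTTAATC, which differs from GATTNAATC in its first letter. Those of Zscan4c and Zscan4f also hold GATTCAATT, which differs in its last letter. The Zscan4 promoters are therefore not shown to lack sites like that of Dux. No region overlapped the Duxf3 window, and the midpoint of the Duxf3 region lay 1.85 kb from the start. None of the 6 promoters matched TGCACAC, the core reported for Zscan4 in binding assays, or the repeat CACACACA, on either strand, against 3.67% and 3.54% of all windows. A lack of these letters in 250 bases says nothing about binding elsewhere in the gene. The regions themselves could not be searched because genome sequence was not used here.

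Obox6 had 2 regions, and they were the widest of the 4. The first lay in the body of the gene (chr7:15833250-15839679, 6430 bp), at chr7:15837309-15838155, and was 847 bp wide with a score of 69 (place 871). It began 4059 bases from the lower-coordinate end and ended 1524 bases from the higher one. The second lay 7.22 kb beyond the higher-coordinate end, at chr7:15846559-15847244, and was 686 bp wide with a score of 29 (place 2661). The second is below the median score of 33, and 59.1% of regions scored at least as high. The midpoints of both regions were 9.17 kb apart, and the next region was 487 kb from the gene, with a score of 12.

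The Obox6 regions were also within 50 kb of genes on their other side. Crx, a homeobox transcription factor of photoreceptors, was 19.05 kb from the nearer region, and Crxos, a homeobox gene annotated beside it, was 35.7 kb away. Among 53 genes whose symbol begins with Obox, 47 of them pseudogenes, Obox6 was the only one with a region within 50 kb. Over all annotated genes the share was 23.2%. Next among the 53 was Obox5 at 78.5 kb. For the other protein-coding Obox genes the distance was longer, with Obox3 at 198 kb, Obox1 at 281 kb, Obox2 at 439 kb and Obox7 at 573 kb. Obox6 lies at the end of this cluster, which spans chr7:14517971 to 15839679 and holds 51 of the 53. These genes are neighbours at 1 locus, so they do not count as separate cases, and nothing is called particular to Obox6.

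Zfp352 had the most distant nearest region of the 9. Its gene (chr4:90218820-90225687, plus strand, 6868 bp) lay 432 kb from the nearest, chr4:90657089-90657600, which was 512 bp wide with a score of 107. Of all genes, 77.9% had a region at least as near. Its promoter matched none of GATTNAATC, TGCACAC and CACACACA. Between the farthest region counted, 7.22 kb from Obox6, and the nearest not counted, 104.68 kb from Zscan4b, there was no region, so the limit of 50 kb did not decide any of the 9 genes.

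The 4 regions were set beside regions of like score for their width, and those of Obox6 were the wide ones. The Zscan4c region, at 469 bp, was narrower than the median of 563 bp (interquartile range 302 to 833 bp) over 138 regions with a score within 10% of its own. The Duxf3 region, at 605 bp, was below the median of 771 bp (495 to 994 bp) over 93 such regions. The Obox6 region in the body, at 847 bp, was above a median of 342.5 bp (255 to 657 bp) over 274, of which 11.3% were as wide. The Obox6 region outside the body, at 686 bp, was above a median of 297.5 bp (250 to 412 bp) over 566, of which 5.12% were as wide. Zscan4c and Duxf3 thus lay inside the interquartile range of regions of their score, and both Obox6 regions above it.

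**Figure D2:**
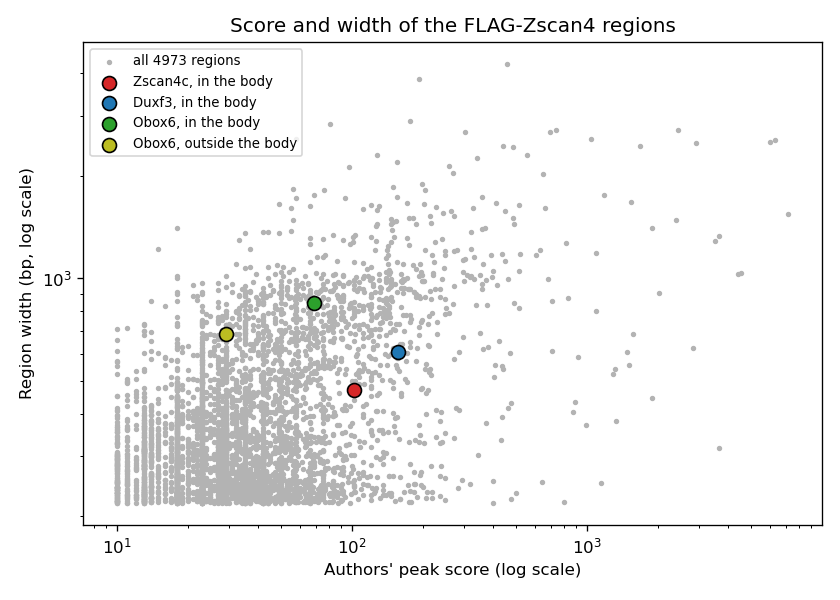
Width in bp against the authors' score, both on log scales, for all 4973 regions (grey) and the 4 regions near the 9 genes (coloured). The Zscan4c and Duxf3 points (469 bp at 102, 605 bp at 157) lie among the regions of like score, and the Obox6 points (847 bp at 69, 686 bp at 29) toward the wide side.

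Set beside all genes, 3 of 9 with a region within 50 kb was close to the background of 23.2%, and to 26.3% among protein-coding genes. For the Zscan4 copies alone it was 1 of 6. The same 3 genes had their region in the body, where the background is lower: 4.46% of all genes, 7.7% of protein-coding genes, and 1.39% of the 5332 genes whose span lay between 3585 and 6868 bp, the range of the 9. The range was chosen after the values were seen, and the 9 genes were named with earlier results of these data known, so no test was made of this difference. The windows of the 9 genes cover 0.931 Mb and hold 4.30 regions per Mb, against 1.85 per Mb over the nuclear chromosomes, a count of 4 regions from 3 loci.

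Of the 5332 genes of like span, 74 had a region in the body, with a median score of 37.5 (interquartile range 23.25 to 50). Duxf3 held place 3 of 74 by score, Zscan4c place 6 and Obox6 place 13. Above Zscan4c in this order were also Gm40468 (212), a long non-coding RNA gene of chromosome 8, the predicted coding gene Gm17019 (196), Rnf187 (116), which encodes a RING finger protein, and Asmt (111), the last enzyme of melatonin synthesis. These 4 were named after their values were seen. The part of plasmid reads in the Zscan4c score and of reads from repeat copies in the Duxf3 score was not tested.

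**Figure D3:**
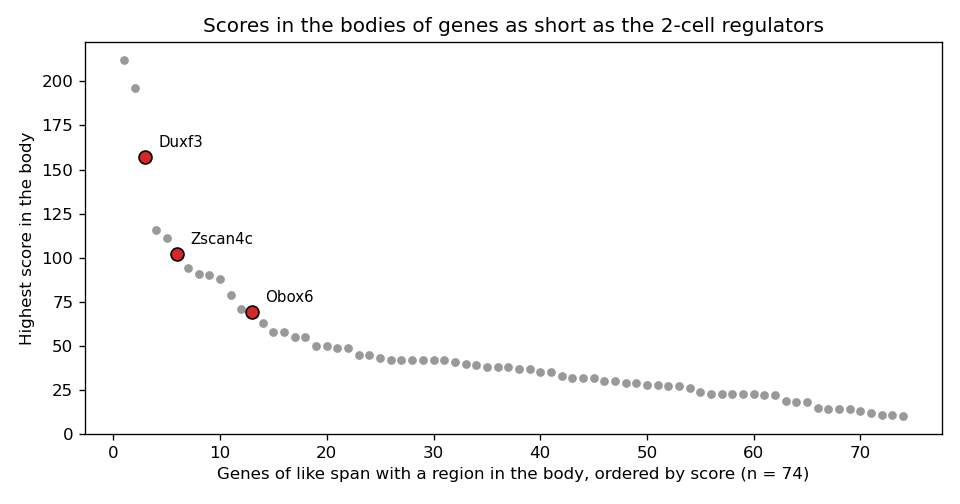
The highest score in the body for each of the 74 genes with a region there and a span between 3585 and 6868 bp, ordered by score. Duxf3 (157), Zscan4c (102) and Obox6 (69) are marked in red and stand above the interquartile range of 23.25 to 50. The part of plasmid reads in the Zscan4c score and of repeat copies in the Duxf3 score was not tested.

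Genes of the same programme were counted from lists given by role, beside the background of 23.2% of all genes within 50 kb. Of the 21 genes transcribed with Zscan4 in 2-cell-like cells that were in the gene table, 4 had a region within 50 kb. Sp110, a nuclear body protein gene, had 3 within 10 kb, 2 of them in the body. The body region listed as nearest, chr1:85604279-85604546, had a score of 36, and the highest within 50 kb of Sp110 had a score of 116. Calcoco2, an autophagy receptor gene, had one of score 49 at 1.43 kb (chr11:96125879-96126107). Tdpoz1 had one at 31.9 kb (35) and Spz1 one at 41.6 kb (20). Tcstv1 and Tcstv3, and all 5 Usp17l genes of the list, had none within 100 kb. Of the 7 names in the Dux family list, 4 were in the gene table. The names Dux, Duxf1 and Duxf4 were not, and Duxf3 was used for Dux. Of the 4 in the table, Duxf3 alone had a region within 50 kb. Its relative Duxbl3 was just outside at 50.15 kb, with Duxbl1 at 150.1 kb and Duxbl2 at 189.8 kb. Genes under other names, such as Gm4981 beside Duxf3, were not on the list, and whether any is a Dux copy was not analysed here.

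Listed regulators that act on this state had regions of low to middling score. In the list of activators, 7 of 9 genes had a region within 50 kb, with a median nearest distance of 22.01 kb against 165 kb over all genes. The list is mixed, since Rybp, Yy1 and Zfp42 also repress genes or retroelements of this state. Nr5a2, a nuclear receptor gene, had a region inside the gene with a score of 47 (chr1:136918025-136918359). Dppa2, which activates Dux, held one of score 10, the lowest in the list (chr16:48315769-48316090), and the same region was the one counted for its neighbour Dppa4, at 21.6 kb. The next by score were Zfp42 (43, at 45.6 kb), Smarca5 (35, at 11.1 kb) and Tbx3 (22, at 36.7 kb), and Rybp had one of 18. Nelfa and Yy1 had none, and no list was tested, so nothing is called particular to this one.

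Of 22 listed repressors, 4 had a region within 50 kb. Usp7, a deubiquitinase gene, had one at 3.81 kb (score 27), and Trim28, the corepressor of KRAB zinc finger proteins, one at 8.17 kb (33). Pcgf6 (31, at 45.0 kb) and E2f6 (29, at 42.2 kb), both of a Polycomb complex, were the others. Of 14 telomere genes linked to Zscan4, 4 had one: Terf1, a telomere repeat-binding protein gene (3 regions, highest score 66 at 14.8 kb), Daxx, a histone chaperone gene (40, at 9.56 kb), Dmc1, a meiotic recombinase gene (14, at 6.88 kb), and Tbx3 again. None of the repressor or telomere genes had a region in the body, where the share was 4.46% of all genes and 7.7% of protein-coding genes. In lists of 22 and 14 genes such shares amount to few genes, so no difference is read from this.

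**Figure D4:**
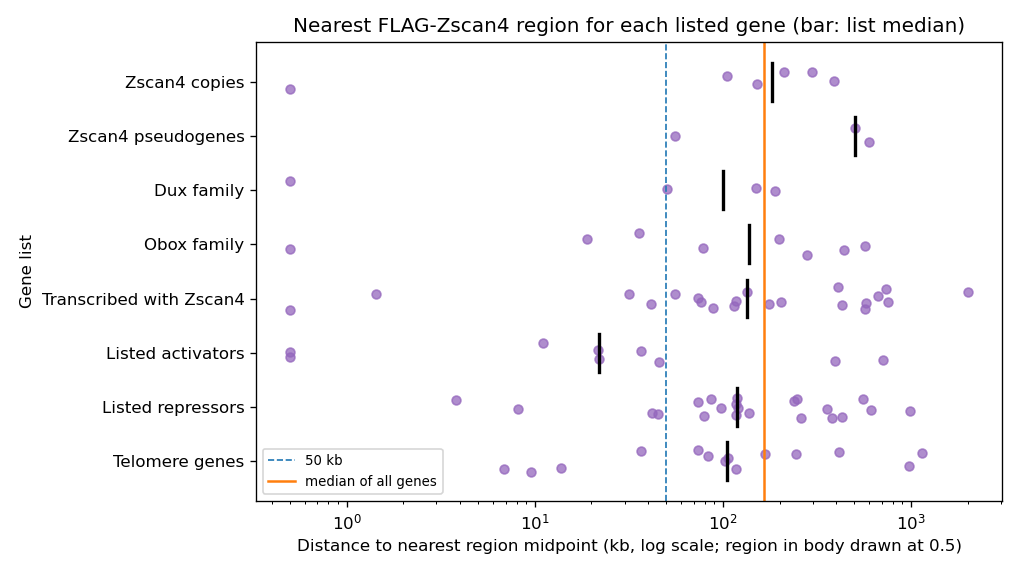
Distance in kb, on a log scale, from each listed gene to the nearest region midpoint, 1 point per gene and 1 row per list, with a black bar at the list's median, an orange line at the median of all genes (165 kb) and a dashed line at 50 kb. Zscan4c, Duxf3 and Obox6 are the points at the far left of their rows, and the row of listed activators has its median at 22.01 kb.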

How the data were processed

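Regions came from 1 list for the FLAG immunoprecipitation, 1 of 12 samples (7 overexpressing, 5 wild-type). Tools named in the submitters' processing notes are cutadapt, Bowtie2, MACS2 and deepTools, with the build mm10 and no versions or order. The score, start and end of each region were deposited by the authors; the scale of the score, the threshold and the control are unstated in the sources used here. The deposited region names carry the words dup_auto, which match the MACS2 setting that limits duplicate reads automatically, and nothing else states how duplicates were treated. Starts, which the file counts from 0, are printed from 1. There are no read counts, so no interval or limit of detection was computed.

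Genes came from RefSeq GRCm38.p6: 49640 of 49997 were used, after leaving out 17 without a chromosome and 340 that start below 3 Mb on autosomes or the X chromosome. Distances run from region midpoint to gene body. Strand came from the promoter table. Promoters were aligned with Biopython 1.88 (match 1, mismatch -1, gap opening -3, gap extension -0.5, free end gaps). Python 3.11.15, pandas 2.3.3 and numpy 2.4.6 were used, and the distance step was tested on simulated regions. All 9 genes are named; of the lists, genes with a region within 10 kb, and up to 3 more per list by score within 50 kb. A few further genes are named after their values were seen. Members and lists were chosen with earlier results of these data known. No test was made, as there is 1 sample. The alternatives were 10 kb and 100 kb, overlap in place of midpoints, score thresholds, merging within 1 kb and protein-coding genes only.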

Additional observations from a re-analysis of the deposited data

How the results depend on the processing

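The count of genes with a region (3 of 9) and of Zscan4 copies (1 of 6) stayed at 3 and 1 within 10 kb and 100 kb, with any overlap of 1 bp or more instead of midpoints, with the 2510 and the 1252 regions of highest score, and with regions merged within 1 kb. The count of regions stayed at 4 except with the 2510 and the 1252 highest, where it was 3, without the Obox6 region of score 29. The share of all genes with a region moved with the setting: it was 23.2% within 50 kb, 8.89% within 10 kb, 36.9% within 100 kb and 26.3% for protein-coding genes only. The distance and overlap settings could not change which members are counted. All 3 genes hold a region midpoint in the body, and no midpoint lay between 7.22 kb and 104.68 kb from any member. The score thresholds and the merging could not change which genes are counted either. The thresholds only remove regions, and the body regions of Zscan4c (102), Duxf3 (157) and Obox6 (69) score above the upper quartile of 55. The closest other region to any of them was 9.17 kb away, beyond the merging distance of 1 kb. The distance does change the background the members are read against. No paired analysis was possible because each group has 1 sample and no test was made. Depth is unknown, so a gene without a region is not shown to be unbound, and a second immunoprecipitation, the input signal and the plasmid reads were not analysed here.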

Other observations

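The promoter of Zfp352, the gene with the most distant nearest region of the 9, is made largely of a short repeat. The 250 bases before its start (chr4:90218570-90218819, plus strand) held ACAACACAC 9 times, marked in capitals.
Zfp352: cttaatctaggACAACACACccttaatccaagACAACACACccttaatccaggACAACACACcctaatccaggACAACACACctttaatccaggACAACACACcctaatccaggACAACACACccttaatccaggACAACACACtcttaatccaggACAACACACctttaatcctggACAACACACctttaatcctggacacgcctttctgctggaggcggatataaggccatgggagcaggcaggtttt
The letters were chosen after this sequence was seen. On either strand, 72 of 32817 promoter windows (0.219%) held them at least 1 time, and no promoter of the other 5 genes did. No FLAG-Zscan4 region overlapped this window, and the nearest midpoint lay 439 kb from the start.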
